A study of Mus musculus with 9 samples.

Results

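The genes of lipid droplet proteins described here are Cidec, Cidea, Plin2, Plin4, Plin5, Fitm2, Bscl2 and Hilpda, picked by symbol from the 32285 genes of each matrix. All 8 were found, and none was used to sort nuclei into cell classes. Gene expression had been measured by droplet single-nucleus RNA sequencing in epididymal adipose tissue, the visceral fat depot beside the testis, of male C57BL/6J mice. There were 9 diet groups with 1 library each, made from the pooled nuclei of 5 mice, so no group had a replicate.

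The lean groups, labelled chow, were C at 18 weeks of age, CC at 26 weeks and CCC at 39 weeks. According to the study's methods the control diet of C was low in fat, and CC and CCC later received a different chow. The obese groups were fed a high-fat diet (HFD), H for 12 weeks, until the age of 18 weeks, and HH for 25 weeks, until that of 31 weeks. After 12 or 25 weeks of HFD, HC and HHC mice went back to chow for 8 weeks, which induced weight loss, and were 26 and 39 weeks old. The last pair, both at 30 weeks of age, got 4 final weeks of HFD: CCH had only eaten chow until then, whereas HCH had been through 12 weeks of HFD and 8 weeks of chow. C, H, HH, CCH and HCH carry the label of sequencing set S075, and CC, CCC, HC and HHC that of S019, so every weight loss library was of S019 and every HFD library of S075.

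A lipid droplet is a core of triglyceride and other neutral lipid under a single layer of phospholipid, to which proteins bind. Fitm2 and Bscl2, which encodes seipin, act in the membrane of the endoplasmic reticulum, where droplets form. The perilipins Plin2, Plin4 and Plin5 coat droplets and control the access of lipases. Cidec and Cidea join droplets at their contact sites and move lipid from smaller into larger ones, and Cidec is a main protein of the large single droplet of white adipocytes. Cidea is best known from brown fat. Plin2 coats droplets in most cell types, among them macrophages that store lipid. Hilpda, which is induced by low oxygen and by fatty acids, binds and inhibits adipose triglyceride lipase.

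The deposited matrices held 91687 barcodes and 408905640 unique molecular identifiers (UMIs, which count captured RNA molecules), between 22599619 in CCC and 66615262 in HHC. After filtering, 70575 nuclei were kept, 4007 to 11908 per library, with a median of 2067 to 3204 UMIs. Classes were set by markers: 50689 nuclei (71.8%) fell into a class, among them 6462 adipocyte-gated, 20471 macrophage-gated, 15832 progenitor-gated, 2369 mesothelial-gated and 3035 endothelial-gated nuclei. Markers of adipocytes (Adipoq, Acvr1c and 8 others) summed to 12730 CPM (counts scaled to a common total of UMIs) in adipocyte-gated nuclei and to 717 in macrophage-gated nuclei. Adipocyte-gated nuclei were few under HFD: 128 in H, 334 in HH, 244 in HCH and 586 in CCH, against 852 in CCC, 1093 in CC and 2314 in C, with 711 in HC and 200 in HHC. In CCC 50.9% of them lay near the limit of the gate, and their median was 2837 UMIs, against 4180 to 5682 in the other libraries. No pair of libraries shared more than 35 barcodes, or more than 0.423% of those of the smaller library.

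In the GRCm38 annotation (GENCODE vM21), all 8 members are protein-coding genes: Cidec at chr6:113424634-113435760 on the minus strand, Plin2 at chr4:86648386-86670060 on the minus strand, Fitm2 at chr2:163466379-163472629 on the minus strand, Bscl2 at chr19:8837467-8848683 on the plus strand and Hilpda at chr6:29272488-29275446 on the plus strand. Plin4, at chr17:56100591-56109803, and Plin5, at chr17:56111601-56117596, are neighbours on the minus strand, and the start of Plin5 lies 1798 bases past the end of Plin4 in these coordinates. Plin4 overlaps Hdgfl2 on the other strand, Fitm2 an antisense gene, Cidea a noncoding transcript on the other strand, and Bscl2 overlaps Gng3 and a gene on its own strand, so their values may hold or lack reads of the gene they overlap.

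Plin2, Plin4 and Hilpda were the 3 members with higher adipocyte CPM in H than in C and in HH than in CC by at least 2-fold. In each case the 95% interval for counting error excluded no change. Hilpda in HH adipocytes was, however, not above the background of free RNA described below. The 250 bases before the outermost RefSeq start sites of these 3 genes (GRCm38.p6) are shown, each 5′ to 3′ on the strand of its gene. Capitals mark matches, on either strand, to the core motif of hypoxia-inducible factors (ACGTG or GCGTG) or to the nuclear receptor site AGGTCA. The region of Plin2 is chr4:86670060-86670309 (minus strand), that of Plin4 chr17:56109783-56110032 (minus strand) and that of Hilpda chr6:29272238-29272487 (plus strand). The fourth sequence, chr6:29272571-29272599, lies before another RefSeq start site of Hilpda, inside the gene. This stretch of 29 bases was picked because it holds a match, while Plin2 and Plin4 have a single start site in the table.
Plin2: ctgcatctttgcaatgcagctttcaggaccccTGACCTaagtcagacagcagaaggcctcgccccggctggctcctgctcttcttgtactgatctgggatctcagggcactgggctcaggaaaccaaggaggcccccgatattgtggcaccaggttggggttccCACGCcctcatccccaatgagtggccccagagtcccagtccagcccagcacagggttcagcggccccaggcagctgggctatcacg
Plin4: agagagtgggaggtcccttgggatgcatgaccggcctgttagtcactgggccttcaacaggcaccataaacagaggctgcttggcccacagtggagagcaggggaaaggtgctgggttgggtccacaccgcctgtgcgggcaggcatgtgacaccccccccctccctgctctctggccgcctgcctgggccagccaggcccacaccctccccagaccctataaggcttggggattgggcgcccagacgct
Hilpda: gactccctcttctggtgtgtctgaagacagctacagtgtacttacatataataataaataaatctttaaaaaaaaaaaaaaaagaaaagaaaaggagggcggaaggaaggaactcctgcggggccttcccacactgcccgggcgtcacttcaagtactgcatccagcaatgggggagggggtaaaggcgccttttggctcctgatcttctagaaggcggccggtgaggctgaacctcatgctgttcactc
Hilpda, inner start site: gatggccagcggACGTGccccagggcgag
In Plin2, GCGTG lies on the opposite strand 86 bases before the start site and AGGTCA on the opposite strand 218 bases before it. Neither Plin4 nor the outermost Hilpda region held any of these letters, while before the inner Hilpda start site ACGTG lies at 43 bases and GCGTG at 8 and 111 bases. Over the 32851 RefSeq promoters of the same length, 16.6% held ACGTG, 28.2% GCGTG and 14.0% AGGTCA. The direct repeat AGGTCANAGGTCA, the full site of PPAR and RXR dimers, was found in 0.0335% of promoters and in none of the 7 members with a promoter sequence. A match describes these letters only, since binding was not measured here.

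The first question was which cells of the tissue held the transcripts. Among the 5 classes with 50 or more nuclei in every library, adipocytes held the largest number of Cidec and of Plin4 UMIs in 9 of 9 libraries, though not always the majority. Those of Plin2 and Hilpda were spread over classes in lean tissue and lay mostly in macrophages in H and HH. Adipocyte-gated nuclei held 89.1% of the Cidec UMIs of C, 64.9% of those of CC and 50.3% of those of CCC. Under HFD they held 64.2% (H), 74.6% (HH), 77.1% (CCH) and 47.8% (HCH), and after weight loss 64.5% (HC) and 29.2% (HHC). In H these nuclei held 2.49% of all UMIs, and in C 37.9%. The share of Plin4 UMIs in adipocytes was close to that of Cidec, from 25.3% in HHC to 86.7% in C.

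Plin2 had another distribution. Macrophage-gated nuclei held 13.5% of the Plin2 UMIs in CCC, 9.34% in CC and 29.0% in C, and 77.8% in H, 74.6% in HH, 68.9% in HCH and 49.7% in CCH. After weight loss the share was 44.9% in HC and 72.4% in HHC. Adipocyte-gated nuclei held 33.3% of them in C, 37.9% in CC and 31.0% in CCC, but 1.01% in H, 3.21% in HH and 2.25% in HCH. For Hilpda the macrophage share was 5.97% of 67 UMIs in C, 3.33% of 30 in CC and 12.96% of 54 in CCC, against 69.5% of 1853 in H and 65.6% of 1072 in HH. The share of all UMIs that lay in macrophages moved as well, from 10.8% in C to 53.7% in H.

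**Figure D1:**
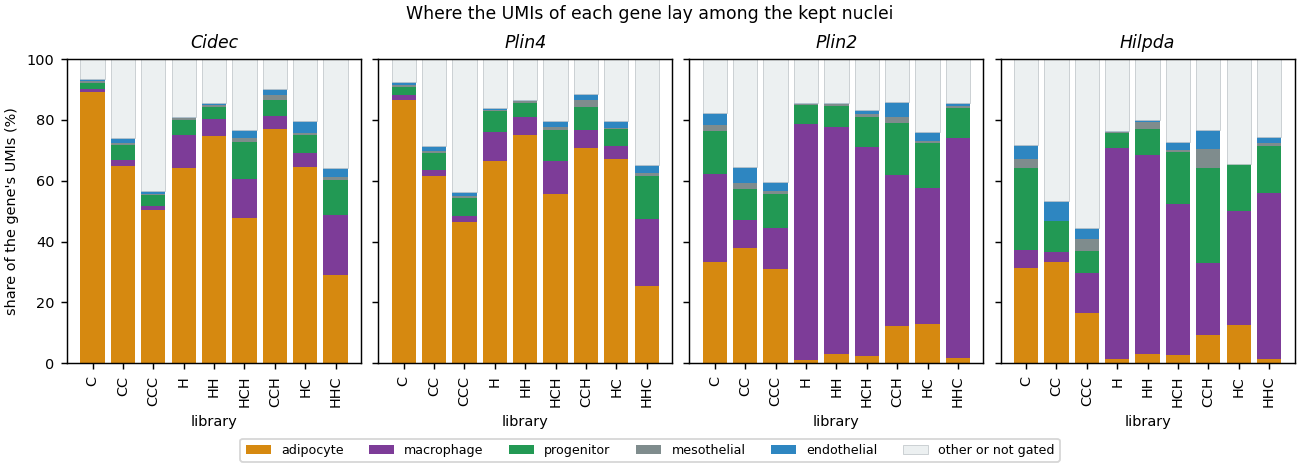
Share of the UMIs of Cidec, Plin4, Plin2 and Hilpda (percent, vertical axis) that lay in each class of gated nuclei, in each of the 9 libraries (horizontal axis); grey is nuclei of other classes or of none. For Cidec and Plin4 adipocytes are the largest class in all 9 libraries, with the smallest Plin4 share, 25.3%, in HHC, while macrophages hold from 9.34% of Plin2 UMIs in CC to 77.8% in H.

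Within a class, levels are given as CPM, the UMIs of the gene as a share of all UMIs that the gated nuclei of the class hold in a library, on a common scale, which removes the number of nuclei. Because the libraries count 3′ ends and introns of genes of unlike length, levels of different genes are not compared. Among these 5 classes, Cidec, Plin4, Fitm2, Bscl2 and Cidea had their highest CPM in adipocytes in 9 of 9 libraries. The 95% intervals of adipocytes and of the next class were apart in 9 libraries for Cidec and Plin4, in 7 for Fitm2 and Bscl2 and in 1 for Cidea. Plin5 was highest in adipocytes in 7 libraries and in endothelial nuclei in 2, with no interval apart, on 126 adipocyte UMIs in all. Plin2 was highest in macrophages in 9 of 9 libraries (intervals apart in 8), and Hilpda in macrophages in 6 (apart in 2), in progenitors in 2 and in endothelial nuclei in 1. All intervals here are exact Poisson, Clopper-Pearson or conditional ones and leave out any difference between mice or pools, since they hold counting error alone.

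Free RNA in the droplets gives UMIs of abundant genes to every nucleus, so mesothelial-gated nuclei of the same library served as a background. Mesothelial cells line the surface of the depot and are not fat-storing cells. Their Cidec CPM was 493 in CC, 127 in HC, 108 in CCC, 88.6 in HHC, 86.0 in C, 82.1 in CCH, 43.5 in HCH, 26.1 in HH and 14.6 in H, which was between 0.762% (H) and 20.4% (CC) of the adipocyte level. Macrophages had Cidec CPM from 14.9 in H to 458 in CC. Their intervals overlapped the mesothelial ones except in C (55.9) and CCH (54.1), where macrophages were lower. Progenitors had from 16.2 in H to 542 in CC. They were above the mesothelial level with intervals apart in CCC (192) and HCH (65.7), and below it in CCH (55.3). Progenitor Cidec in CCC and HCH is therefore not read as background. The mesothelial level was 74.99% to 154% of the macrophage level for Cidec and 81.7% to 137% for Plin4, so both genes are read as background in macrophages. Endothelial nuclei had more in some libraries: their Cidec CPM was 312 in CCC, 279 in HC, 231 in HHC and 137 in HCH, above the mesothelial level with intervals apart. In C, CC, H, HH and CCH the intervals overlapped. Their Plin4 CPM was above with intervals apart in CCC (309), HC (125), HHC (169) and HCH (112). In C it was lower, at 60.7 against 101, also with intervals apart. The endothelial levels above the mesothelial ones are not read as background. For Plin2 the mesothelial level was 62.9%, 86.6% and 31.0% of the adipocyte level in C, CC and CCC, and 26.9%, 23.7%, 35.7% and 40.4% in H, HH, CCH and HCH. In epithelial-gated nuclei Plin2 was lower, at 11.6 CPM (5.77 to 20.7) in C, against 43.5 (32.0 to 57.6) in mesothelial nuclei. In H, on 48 epithelial nuclei, it was 17.7 (3.7 to 51.8) against 91.8 (70.5 to 117). In CCC, HC and CCH these intervals overlapped. Mesothelial nuclei may thus hold Plin2 RNA of their own, and every subtraction of it here may take away too much. This was not tested. Subtracting the mesothelial level moved the log2 ratio of adipocyte Plin2 from 2.30 to 3.28 for H against C and from 2.11 to 4.62 for HH against CC. In CC the mesothelial Plin2 level rested on 20 UMIs (47.1 to 119 CPM), an interval that held the adipocyte level of 89.0 CPM. Adipocyte Plin2 in CC was thus not shown to be above the background, and the value of 4.62 has no upper limit. Endothelial Plin2 CPM was above the mesothelial level with intervals apart in H (190), HH (165), CCH (89.4), HCH (181) and HHC (180). In CC it was above the adipocyte level, at 135 CPM, with intervals apart. Endothelial and adipocyte intervals overlapped in CCC, HC, HHC, CCH and HCH. In C, H and HH adipocytes were higher, with intervals apart. Endothelial nuclei as a background for Plin2 were not tested.

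In adipocyte-gated nuclei, Plin4 was above the lean libraries in every HFD library and Plin2 in all but CCH. Hilpda was above the mesothelial background in H but not in the other HFD libraries. Cidec, the contact-site protein, lay inside the lean range. Plin4 CPM was 1416 in CCC, 1049 in CC and 1092 in C, and 2363 in H, 2282 in HH, 1639 in CCH and 2711 in HCH. Every HFD library was above every chow library. No other member was above or below in this way (1 of 8 members, where 17.3% of all 13732 genes tested did not overlap in either direction). The share of members was thus not above that of all genes, and the count is not read as a result about the members.

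Plin2 CPM was 142 in CCC, 89.0 in CC and 69.1 in C, and 341 in H, 385 in HH, 110 in CCH and 226 in HCH. H, HH and HCH were above the chow range and CCH, after only 4 weeks of HFD, was inside it. Hilpda CPM was 1.85 in C (21 UMIs), 2.19 in CC (10) and 3.30 in CCC (9), and 43.7 in H (26), 21.3 in HH (32), 1.94 in CCH (6) and 7.70 in HCH (9). H, HH and HCH again were above all chow libraries and CCH was not. In HH the mesothelial nuclei had almost the same Hilpda level, 20.6 CPM, while in H they had 8.74 CPM. Hilpda in HH adipocytes was therefore not above the background. In HCH the adipocyte interval (3.52 to 14.6) overlapped the mesothelial one (0.538 to 7.63), so there it was not shown to be above the background either. In H, endothelial nuclei had 23.5 CPM of Hilpda (11.25 to 43.15), an interval that overlapped the adipocyte one (28.57 to 64.08). Nuclei of no class had 126 CPM in H. Adipocyte Hilpda in H was thus above the mesothelial level but not shown to be above the endothelial one.

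Cidec CPM was 1780 in CCC, 2421 in CC and 1348 in C, and 1912 in H, 2252 in HH, 1790 in CCH and 1808 in HCH, so that the HFD libraries lay inside the range of the chow libraries. The 2 members of the endoplasmic reticulum overlapped as well. Fitm2 was at 36.3 CPM in CCC, 51.1 in CC and 104 in C, and at 123 in H, 90.7 in HH, 80.6 in CCH and 58.2 in HCH. Bscl2 was at 62.6 CPM in CCC, 106 in CC and 65.6 in C, and at 94.2 in H, 76.0 in HH, 48.9 in CCH and 55.6 in HCH. The other 2 members were sparse: Cidea had between 2 UMIs in H and 46 in C, from 2.41 CPM in CC to 12.4 in HC, and Plin5 had between 1 UMI in HHC and 35 in C, from 1.06 to 7.34 CPM.

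**Figure D2:**
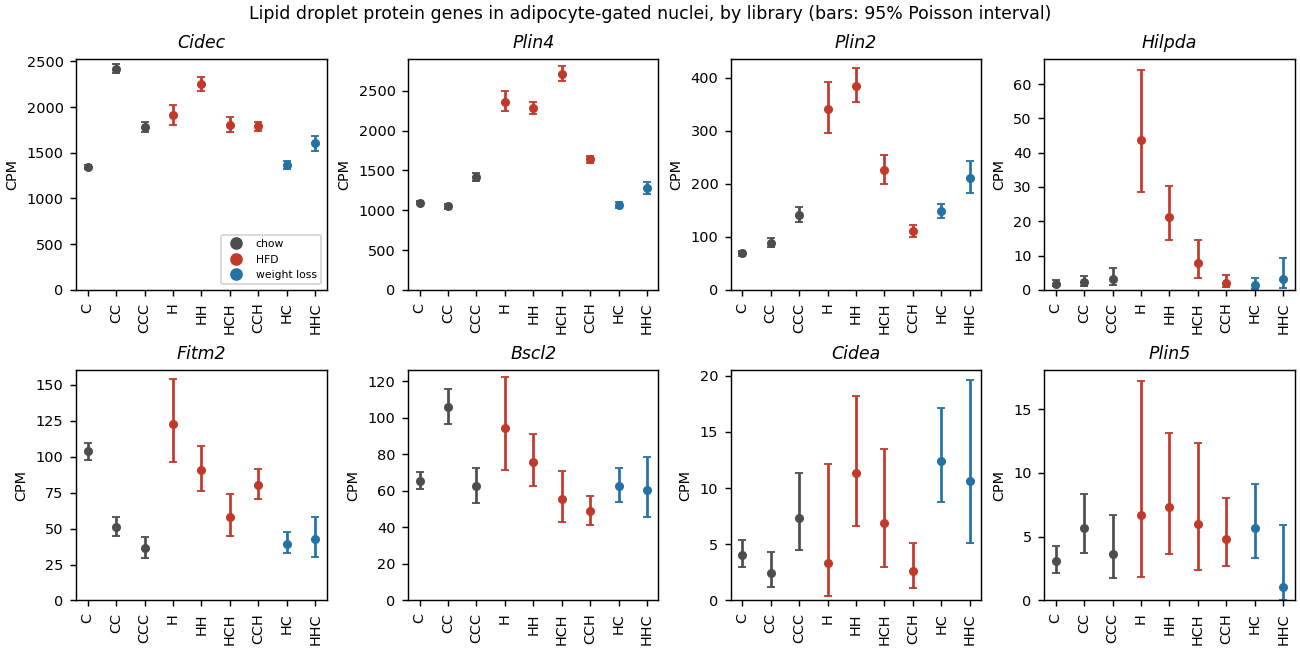
CPM of the 8 members in adipocyte-gated nuclei (vertical axis, linear and starting at 0, a scale per gene) in the 9 libraries (horizontal axis), coloured by diet state, with exact Poisson 95% intervals. The 4 HFD libraries of Plin4 sit between 1639 and 2711 and above the 3 chow libraries, while those of Cidec sit inside the chow range of 1348 to 2421.

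With libraries of one diet state taken as replicates, edgeR's quasi-likelihood test over all 9 libraries called 0 of the 8 members in adipocytes under HFD against chow at an adjusted p under 0.05, and 0% of all genes tested (smallest adjusted p 0.0513). The spread in this test holds age, length of feeding, history and sequencing set. At an unadjusted p under 0.05 it found 3 members higher and none lower, beside 25.9% of all genes in either direction. These were Plin2, with a log2 fold change of 1.33 ± 0.36 (SE; edgeR, adjusted p = 0.0723), Plin4, with 0.84 ± 0.23 (adjusted p = 0.0723), and Hilpda, with 2.71 ± 0.82 (adjusted p = 0.0838). For Cidec it was -0.01 ± 0.24 (adjusted p = 0.987), and for Fitm2, Bscl2, Cidea and Plin5 between -0.31 and 0.48 (adjusted p 0.487 to 0.716).

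These 3 members were called, all higher, by DESeq2 (Plin2 1.28, adjusted p = 0.0112; Plin4 0.80, adjusted p = 0.00217; Hilpda 2.73, adjusted p = 0.0107), where 11.1% of all genes were called. Without CCH, the library with the shortest HFD, edgeR called the same 3, where 17.3% of all genes were called: Plin2 at 1.58 (adjusted p = 0.00866), Plin4 at 0.94 (adjusted p = 0.0207) and Hilpda at 3.15 (adjusted p = 0.0102). Without H, Hilpda was at 1.95. With the sequencing set as a covariate, the log2 fold changes were 1.69, 0.82 and 2.90 and none passed (adjusted p 0.258 to 0.319). Within S075, where C was the only chow library, the mean of the 4 HFD libraries minus C was 1.78 for Plin2, 1.02 for Plin4, 2.15 for Hilpda and 0.52 for Cidec on the log2(CPM + 1) scale, with no test.

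Markers of lipid-associated macrophages (LAMs: Trem2, Gpnmb and 5 others) moved with the obese libraries also in adipocyte-gated nuclei, where all 7 were found in every library. Their summed CPM there was 86.8 in CCC, 44.1 in CC and 24.5 in C, 1181 in H, 795 in HH, 29.1 in CCH and 460 in HCH, and 554 in HC and 2082 in HHC. In mesothelial nuclei it was 100 to 188 in the chow libraries and 757 to 2084 in H, HH and HCH. In adipocyte-gated nuclei without any UMI of the 10 general macrophage markers, the log2 fold changes were 1.40 for Plin2 (edgeR, adjusted p = 0.0557), 0.84 for Plin4 (adjusted p = 0.224) and 2.96 for Hilpda (adjusted p = 0.235). How much macrophage RNA adds to adipocyte Plin2 and Hilpda was not tested beyond this. Plin4 in mesothelial nuclei went the other way in H, HH and HCH, from 101 to 227 CPM in the chow libraries to 17.5 in H, 24.55 in HH and 52.2 in HCH. In CCH it was at 105 CPM, inside the chow range.

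**Figure D3:**
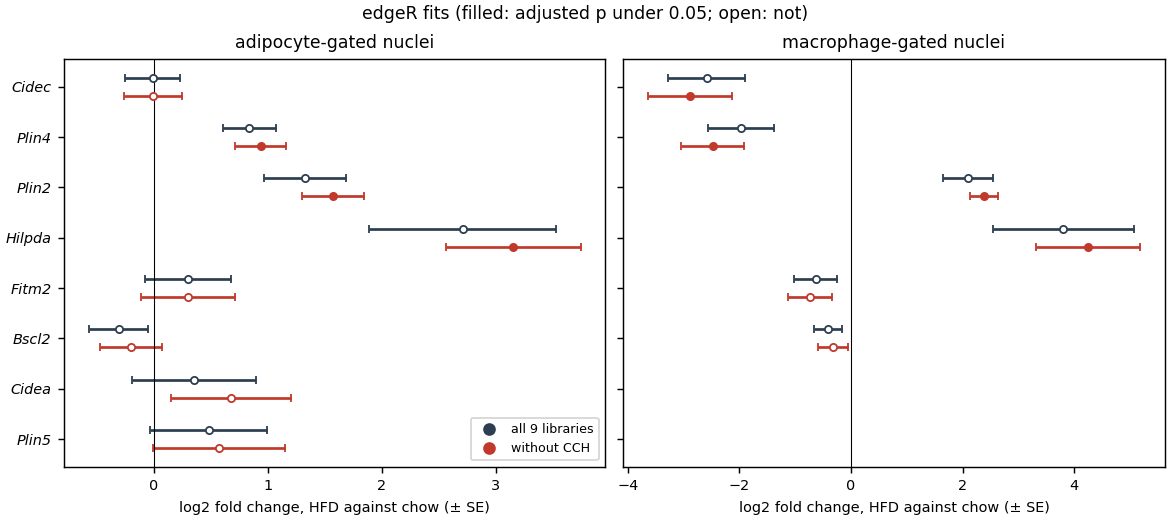
Log2 fold change of HFD against chow with its SE (horizontal axis) for each member tested (vertical axis), by edgeR, in adipocyte-gated (left) and macrophage-gated nuclei (right), over all 9 libraries and without CCH; filled points have an adjusted p under 0.05. No point is filled over all 9 libraries, and without CCH Plin2, Plin4 and Hilpda are filled in adipocytes.

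Single diet groups were then set against their lean control, without a test, since each has 1 library. A member was counted when its CPM differed by 2-fold or more with a 95% interval that excluded no change, given at least 10 UMIs in both libraries together. In adipocytes, 3 of 8 members passed for H against C, all higher, where 26.5% of all genes passed in either direction: Plin2 was 4.94-fold (4.21 to 5.77), Plin4 2.17-fold (2.05 to 2.29) and Hilpda 23.6-fold (12.8 to 44.1) higher. For HH against CC, 4 passed, all higher (35% of all genes): Plin2 4.32-fold (3.80 to 4.92), Plin4 2.18-fold (2.08 to 2.27), Hilpda 9.74-fold (4.67 to 22.2) and Cidea, on 17 and 11 UMIs, 4.70-fold (2.08 to 11.1). HH and CC are of different sequencing sets. Against C, of its own set, HH was 5.57-fold higher for Plin2 and 2.09-fold higher for Plin4. Hilpda in HH was not above the background given above, and its ratio to CC turned to lower with the mesothelial CPM subtracted.

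After 4 weeks of HFD in mice that had been lean, few members differed from the lean level. For CCH against CC, 1 of 8 members passed and was lower (19% of all genes): Bscl2, at 0.461-fold (0.381 to 0.554). Against C, of the set of CCH, no member passed, and the share of all genes is not given for this pair. The same 4 weeks after an earlier obesity were set against them as HCH against CCH, 2 libraries of the same age and set. Here 2 of 8 members passed, both higher (13.9% of all genes): Plin2 was 2.05-fold (1.74 to 2.41) and Hilpda, on 9 and 6 UMIs, 3.97-fold (1.26 to 13.5) higher. With the mesothelial CPM subtracted the log2 ratio of Plin2 was 0.92, and 0 members passed. Plin4 was at 2711 CPM in HCH and 1639 in CCH, the highest and the lowest value of the HFD libraries, a ratio below 2-fold.

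After weight loss, Plin4 and Hilpda of adipocytes were at lean levels, and the share of members outside the chow range was close to that of all genes. Plin4 CPM was 1061 in HC and 1277 in HHC, inside the chow range of 1049 to 1416, and Hilpda CPM was 1.34 in HC (4 UMIs) and 3.19 in HHC (3 UMIs). Plin2 CPM was 148 in HC and 211 in HHC, above all 3 chow libraries, of which CCC at 142 was close to HC. Cidea CPM was 12.4 in HC (37 UMIs) and 10.6 in HHC (10 UMIs), against 4.06, 2.41 and 7.33 in C, CC and CCC. Both weight loss libraries thus were above the chow range for 2 of 8 members, where 24.3% of all genes did not overlap in either direction. With the mesothelial CPM subtracted, Plin2 was at 69.2 in HC and 120 in HHC, against 11.9 (CC) to 97.8 (CCC) in the chow libraries, so HC then lay inside the chow range. The 95% interval of Cidea in HHC (5.10 to 19.6) overlapped that in CCC (4.47 to 11.3).

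In the edgeR fit of weight loss against chow, 0 of 8 members and 0% of all genes were called, and 0 members were called by DESeq2. At an unadjusted p under 0.05 edgeR found 1 member, Cidea, with a log2 fold change of 1.43 ± 0.61 (adjusted p = 0.577), where 8.32% of all genes were found. Plin2 had 0.89 ± 0.41 (adjusted p = 0.601), Cidec -0.28 ± 0.29 (adjusted p = 0.858) and Plin4 0.01 ± 0.27 (adjusted p = 1). For HC against CC, of the same age and set, 1 of 8 members passed the size rule (14.3% of all genes), Cidea at 5.14-fold (2.57 to 11.2). For HHC against CCC 0 of 8 passed (12.9% of all genes). Plin2 in HC and HHC has the LAM marker levels given above beside it, and in adipocytes without macrophage markers its log2 fold change was 0.54 (edgeR, adjusted p = 0.9998).

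Depth per nucleus differed between libraries, so the share of adipocyte-gated nuclei with a UMI was taken after thinning each nucleus to 1500 UMIs. Plin2 was then found in 10.3% of nuclei in C, 11.9% in CC and 19.9% in CCC, in 31.7% in H, 39.5% in HH, 14.2% in CCH and 32.3% in HCH, and in 19.3% in HC and 21.7% in HHC. In mesothelial nuclei thinned in the same way the range was 5.85% (C) to 16.3% (HCH). Without thinning, adipocyte nuclei held a Plin2 UMI in 23.8% (C) to 68.8% (H). Plin4 was found in 73.5% to 81.0% of thinned nuclei in the chow libraries and in 84.0% to 94.7% in the HFD libraries. It was the only member above in every HFD library (1 of 8, where 6.88% of all genes tested were above in this way). Without thinning there were 4 (Cidec, Plin2, Plin4 and Plin5), where 21.7% of all genes were above. Cidec was found in 77.9% (HC) to 91.0% (CC) of thinned nuclei.

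Macrophages, which store lipid as LAMs in obese fat, were the class with the highest Plin2 CPM in every library. Whether the change of Plin2 or Hilpda under HFD differed between macrophages and adipocytes was not tested, and for Plin2 the order of the 2 classes turned with the treatment of the background. With the mesothelial CPM subtracted, the log2 ratio of macrophage Plin2 was 2.75 for H against C and 4.00 for HH against CC, below the adipocyte values given above. The adipocyte value of HH against CC has no upper limit, since Plin2 in CC adipocytes was not shown to be above the background. Plin2 CPM in macrophage-gated nuclei was 196 in CCC, 144 in CC and 212 in C, and 1220 in H, 1167 in HH, 258 in CCH and 776 in HCH. All 4 HFD libraries were above the chow libraries, CCH least. After weight loss it was 460 in HC and 782 in HHC, again above the chow range (1 of 8 members, beside 32.8% of all genes that did not overlap). The mesothelial level was 7.52% (H) to 53.5% (CC) of these values.

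Hilpda CPM in macrophages was 1.24 in C (4 UMIs), 1.44 in CC (1) and 8.18 in CCC (7), and 101 in H (1288), 61.1 in HH (703), 2.78 in CCH (15) and 15.5 in HCH (162). H, HH and HCH were above the chow range and CCH was inside it. After weight loss it was 3.56 in HC and 9.64 in HHC. In H and HH, macrophage Cidec fell with the background, to 14.9 and 23.1 CPM, beside 14.6 and 26.1 in mesothelial nuclei. The lowest chow value, 55.9 CPM (48.0 to 64.7), was that of C, of the same sequencing set. The highest, 458, was that of CC, of the other set. CCH (54.1 CPM) and HCH (54.6 CPM) had intervals that overlapped the one of C. Mesothelial Cidec of HCH was at 43.5 CPM, against 86.0 for C, so there macrophage Cidec did not follow it. Macrophage Plin4 was below C (73.3 CPM) in H (15.7), HH (23.3) and HCH (58.4). In CCH it was not, at 78.7 CPM. Of the 8 members, 1 was above (Plin2) and 1 below (Cidec) in every HFD library, where 20.8% of all genes did not overlap.

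The edgeR fit called 0 of the 6 members tested in macrophages under HFD (0% of all genes; smallest adjusted p 0.0827), with 2 higher and 2 lower at an unadjusted p under 0.05 beside 28.9% of all genes. The log2 fold change was 2.10 ± 0.45 for Plin2 (edgeR, adjusted p = 0.0827) and 3.81 ± 1.27 for Hilpda (adjusted p = 0.106). It was -2.59 ± 0.68 for Cidec (adjusted p = 0.0845) and -1.98 ± 0.59 for Plin4 (adjusted p = 0.0936), both at the level of mesothelial nuclei. With the sequencing set as a covariate these were -0.73 and -0.84, and without CC Cidec was at -1.43 and Plin4 at -1.68. With a library left out Hilpda lay between 3.03 (without H) and 4.96 (without CCC). Fitm2 and Bscl2 had -0.64 and -0.41. DESeq2 called these 4 (13.8% of all genes), with Plin2 at 2.10 (adjusted p = 0.000319) and Hilpda at 3.61 (adjusted p = 0.00808). Without CCH edgeR called the 4 as well (27.9% of all genes), with Plin2 at 2.38 (adjusted p = 0.000842) and Hilpda at 4.25 (adjusted p = 0.0130). With the sequencing set as a covariate Plin2 was at 1.83 and Hilpda at 4.97 (adjusted p = 0.416 for both), and within S075 the 4 HFD libraries minus C differed by 1.78 and 3.48 on the log2(CPM + 1) scale.

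After weight loss edgeR called 0 of 6 members in macrophages (0% of all genes), and 1 member was found at an unadjusted p under 0.05, Plin2, at 1.70 ± 0.50 (adjusted p = 0.221). It was the only member called by DESeq2, at 1.71 (adjusted p = 0.0412; 3.39% of all genes), and by edgeR without CCH, at 1.70 (adjusted p = 0.00565; 4.63% of all genes). Both weight loss libraries and CC and CCC are of S019, and there the difference was 1.83 on the log2(CPM + 1) scale. Hilpda had 1.17 ± 1.45 (edgeR, adjusted p = 0.748). Whether Plin2 and Hilpda differed from each other in how far they went back was not tested.

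By single groups, macrophage Plin2 was 5.77-fold (5.34 to 6.24) higher in H than in C and Hilpda 80.9-fold (31.5 to 297), while Cidec, Plin4 and Fitm2 were lower (5 of 7 members; 35.8% of all genes passed). Hilpda of C macrophages, at 1.24 CPM on 4 UMIs, was not above the mesothelial level of 1.81 CPM. With the mesothelial CPM subtracted, 1 member was left past 2-fold for H against C. For HH against CC 2 were higher and 3 lower (31.1% of all genes): Plin2 was 8.10-fold (6.65 to 9.96) and Hilpda, on 703 UMIs and 1 UMI, 42.4-fold (7.58 to 1676) higher. HH and CC are of different sequencing sets. Macrophage Plin2 was at 1167 CPM in HH, against 144 in CC and 212 in C, which is of the set of HH. Plin2 was 3.19-fold (2.61 to 3.95) higher in HC than in CC, where 1 of 6 members was higher and 2 were lower (16.3% of all genes), and 3.98-fold (3.42 to 4.67) in HHC than in CCC, where 1 of 7 was higher and 1 lower (13.5%). For CCH against CC 3 of 6 members were lower (14.6% of all genes), Cidec, Plin4 and Bscl2, and none was higher. Against C none passed, with the share of all genes not given for this pair. For HCH against CCH 2 of 7 passed (19.3%), with Plin2 3.004-fold (2.84 to 3.18) and Hilpda 5.59-fold (3.29 to 10.2) higher.

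**Figure D4:**
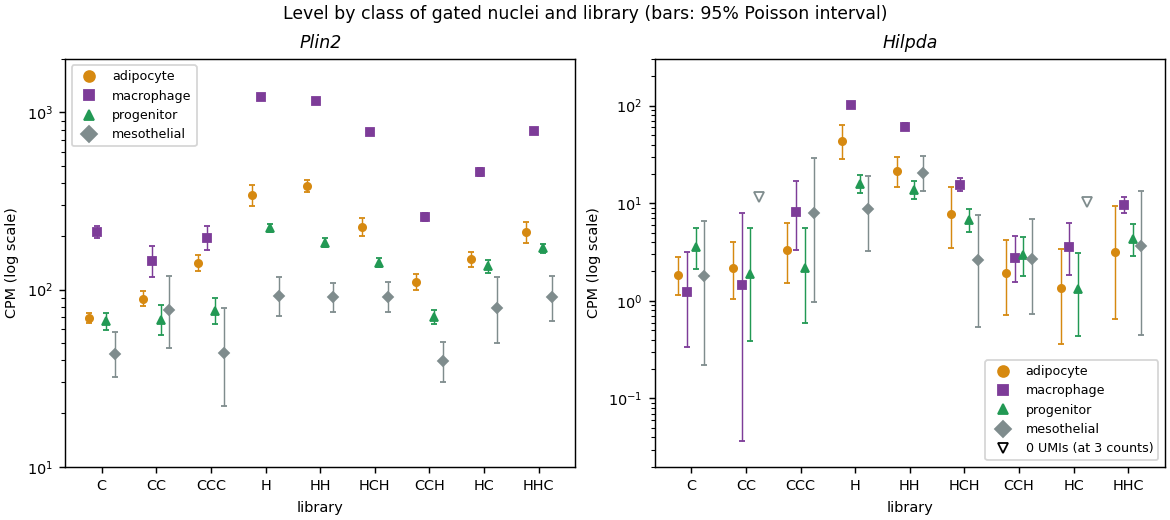
CPM of Plin2 (left) and Hilpda (right) on a log scale (vertical axis) in adipocyte-, macrophage-, progenitor- and mesothelial-gated nuclei of the 9 libraries (horizontal axis), with exact Poisson 95% intervals; open triangles mark 0 UMIs, drawn at the level of 3 counts. Macrophage Plin2 is the highest of the classes in every library, from 144 in CC to 1220 in H, and macrophage Hilpda reaches 101 in H.

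The kinds of macrophage in the gate changed with diet, so the 2 genes were also read within kinds, set from marker lists. LAMs were 2.29%, 1.09% and 7.003% of macrophages in C, CC and CCC. They were 90.01% in H, 86.0% in HH, 64.8% in HCH and 3.94% in CCH, and 77.1% and 96.2% after weight loss in HC and HHC. A LAM needed 2 markers but no minimum share of UMIs. As LAM markers were also found in mesothelial nuclei of H, HH and HCH, free RNA may have moved nuclei into the LAMs. How far this changed the shares and levels of LAMs and of perivascular macrophages was not tested. Within LAMs of the 6 libraries with at least 50 such nuclei, Plin2 was at 531 CPM in HC, 803 in HHC, 901 in CCH, 979 in HCH, 1247 in HH and 1291 in H. Plin2 of LAMs in CCH, where LAMs were few, thus lay between the weight loss and the HCH values, and HCH was 1.09-fold (0.953 to 1.24) that of CCH. Hilpda of LAMs was at 109 CPM in H and 68.7 in HH, against 19.8 in HCH, 11.6 in CCH (3 UMIs), 10.1 in HHC and 4.46 in HC.

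Perivascular macrophages (PVMs), the resident kind marked by Lyve1 and Cd163, had less Plin2 than LAMs in H, HH, HC, CCH and HCH, the libraries with at least 50 nuclei of each kind. Plin2 of PVMs was at 187 CPM in C, 125 in CC and 136 in CCC, 422 in H, 552 in HH, 221 in CCH and 304 in HCH, and 145 in HC, while HHC had only 36 such nuclei. It was 2.26-fold (1.91 to 2.67) higher in H than in C, 4.43-fold (3.37 to 5.91) higher in HH than in CC and 1.17-fold (0.749 to 1.80) in HC against CC. HCH was 1.37-fold (1.23 to 1.53) that of CCH, and CCH 1.78-fold (1.37 to 2.34) that of CC, of the other sequencing set. CC is of the other set for HH as well, and C, of the set of HH and CCH, had the higher level of 187 CPM. The folds of H and HH in PVMs thus lay below those over all macrophages, with intervals that did not overlap. Hilpda of PVMs was sparse, with 9 UMIs in H, 2 in HH, 14 in HCH, 7 in CCH, 4 in C, 1 in CCC and none in CC and HC. It was 10.03-fold (2.80 to 44.6) higher in H than in C and 3.72-fold (1.41 to 10.9) higher in HCH than in CCH. The mesothelial level of H, 8.74 CPM, lay within the 95% interval of H in PVMs (17.6 CPM, 8.04 to 33.4), and that of HCH, 2.61 CPM (0.538 to 7.63), had an interval that overlapped the one of HCH in PVMs (7.15 CPM, 3.91 to 12.0), so that Hilpda of PVMs was not shown to be above the background.

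Progenitors, the mesenchymal cells from which adipocytes form, had a lower Plin2 CPM than macrophages in every library. Plin2 CPM was 75.9 in CCC, 67.6 in CC and 66.1 in C, 223 in H, 184 in HH, 70.2 in CCH and 142 in HCH, and 135 in HC and 171 in HHC. CCH again was inside the chow range, and both weight loss libraries were above it (1 of 8 members, beside 25.2% of all genes that did not overlap). The edgeR fits called 0 members, with 0% of all genes called for HFD and for weight loss. Plin2 had 1.02 ± 0.28 under HFD (adjusted p = 0.130) and 1.11 ± 0.33 after weight loss (adjusted p = 0.307), and Hilpda 1.68 ± 0.61 under HFD (adjusted p = 0.154). DESeq2 called 3 members under HFD (7.51% of all genes), Plin2 higher and Cidec and Plin4 lower. Without CCH edgeR called 3 (7.64% of all genes), Plin2 at 1.23 (adjusted p = 0.0131), Hilpda at 1.96 (adjusted p = 0.0468) and Plin4 at -2.33 (adjusted p = 0.0438), and after weight loss 1 (0.485% of all genes), Plin2 at 1.11 (adjusted p = 0.0479). With the sequencing set as a covariate, progenitor Plin4 was at -0.50 and Cidec at -0.82, against -1.98 and -2.77 without it. Progenitor Cidec was at 542 CPM in CC and 16.2 in H, beside 493 and 14.6 in mesothelial nuclei, and Plin4 at 271 CPM in CC and 25.5 in H, beside 227 and 17.5. In CCC progenitor Cidec was at 192 and Plin4 at 262, beside 108 and 176 in mesothelial nuclei, with intervals apart. Progenitor Plin2 in CC was below the mesothelial level of 77.1 CPM. Progenitor Hilpda was at 15.8 CPM in H, 13.7 in HH and 6.72 in HCH, below the mesothelial level in HH (20.6) and with overlapping intervals in H and HCH, so it was not shown to be above the background.

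In mesothelial and endothelial nuclei Plin2 had log2 fold changes of 0.53 (edgeR, adjusted p = 0.479) and 0.70 (adjusted p = 0.414) under HFD. In mesothelial nuclei this was 0.27 without C and 0.82 without CC, and in endothelial nuclei 0.31 without C, 1.10 without CC and 1.61 with the sequencing set as a covariate (adjusted p = 0.404). By edgeR over all libraries no member was called in either class under HFD or after weight loss, where it called 0% of mesothelial genes, 0.0394% of endothelial genes under HFD and 0% after weight loss. DESeq2 called Plin4 lower in mesothelial nuclei under HFD, at -1.75 (adjusted p = 0.0262; 2.21% of all genes), and Cidec lower in endothelial nuclei, at -2.26 (adjusted p = 0.0146; 4.59% of all genes). By edgeR mesothelial Plin4, whose level is read here as background, was at -1.67, at -0.94 with the sequencing set as a covariate and -1.35 without CC. It was called by edgeR at -2.32 without CCH (adjusted p = 0.0140) and at -2.92 without CCH and HCH (adjusted p = 0.000322). Endothelial Cidec was at -2.21 by edgeR, but at -0.06 with the covariate, -1.27 without CC and -3.55 without CCH and HCH. Without C edgeR called it, at -2.69 (adjusted p = 0.0409). The share of all genes called in these fits with libraries left out is not given. Mesothelial Plin2 was at 43.5, 77.1 and 43.9 CPM in C, CC and CCC and at 91.8, 91.1, 39.4 and 91.4 CPM in H, HH, CCH and HCH. It was at 79.0 CPM in HC and 90.4 CPM in HHC. H, HH and HCH lay above the chow libraries and CCH did not.

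Other genes of the pathway were counted from lists chosen for their function, and those named here were chosen after their values were seen. Of 26 other lipid droplet genes 23 were tested in adipocytes under HFD and edgeR called 0, with 5 higher and 2 lower at an unadjusted p under 0.05 and a median log2 fold change of -0.01, against 0.42 for the 8 members and -0.00 for all genes. DESeq2 called 1 of them, G0s2 (11.1% of all genes). Without CCH edgeR called 4 of the 23, a share close to the 17.3% of all genes, all higher: the perilipins Plin1 and Plin3, Aup1, and G0s2, which like Hilpda inhibits adipose triglyceride lipase. Of 14 regulators, 3 were higher and 3 lower at an unadjusted p under 0.05 and 0 were called, while DESeq2 called 1 higher (Clstn3) and 3 lower (Epas1, Ppard and Rxra) and edgeR without CCH 3 higher (Cebpa, Cebpb and Clstn3) and 2 lower (Ppard and Rxra). Clstn3 had a log2 fold change of 2.49 ± 0.49 (edgeR, adjusted p = 0.0518) and Rxra of -1.68 ± 0.50 (adjusted p = 0.0838). Of 10 hypoxia response genes 8 were tested, 0 were called by edgeR or DESeq2, and 1 was lower at an unadjusted p under 0.05, with a median of -0.30. In macrophages under HFD edgeR called 0 genes of the 3 lists. Without CCH, where 27.9% of all genes were called, it called 7 of 22 other lipid droplet genes, 3 higher (Plin3, Aup1 and Pcyt1a) and 4 lower (Plin1, Lipe, Pnpla3 and Vps13a). Of 14 regulators it then called 1 higher (Nr1h3) and 4 lower (Ppara, Ppard, Rxra and Srebf1), and of 10 hypoxia response genes 3 higher (Ankrd37, Pdk1 and Slc2a1) and 2 lower (Bnip3 and Vegfa). DESeq2, which called 13.8% of all genes there, called Plin3 higher and Plin1 and Lipe lower among the droplet genes, 5 regulators lower (Epas1, Ppara, Ppard, Rxra and Srebf1), and Ankrd37 higher and Vegfa lower among the hypoxia response genes. Plin1 and Lipe are abundant in adipocytes, and the 10 adipocyte markers together were at 997 to 2039 CPM in macrophage-gated nuclei of the chow libraries and at 399 to 1088 CPM in those of the HFD libraries. The part of free adipocyte RNA in the lower calls was not tested.

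Over the 9 libraries, the adipocyte levels of Plin2 and Plin4 had a Pearson r of 0.770 on the log2(CPM + 1) scale. The other 9 pairs among the 5 members with at least 200 adipocyte UMIs had r between -0.07 and 0.572. Of 10113 genes compared, those most like Plin2 were Bcs1l (r = 0.990), Sycp3 (0.990) and Taf1d (0.988), and those most like Plin4 were Tspan3 (0.983), Scd2 (0.977) and Tspan17 (0.977). For Cidec the nearest were Xab2 (0.947), Cops9 (0.878) and Grcc10 (0.833). For Fitm2 they were Gm46218 (0.956), Mcm3ap (0.949) and Gpbp1l1 (0.948), and for Bscl2 Ltbp3 (0.944), Paox (0.937) and Rad51d (0.873). The 9 points share diet, sequencing set and depth, and the values are descriptions only.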

How the data were processed

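Nuclei of epididymal adipose tissue from 9 diet groups (1 library each, 5 mice pooled) were profiled with 10x Genomics 3′ chemistry. The deposited matrices hold counts: the authors counted UMIs per gene and barcode with Cell Ranger 6.1.2 against a GRCm38 (mm10) reference, introns included, and deposited barcodes called as cells, without later filters. Introns raise the counts of genes with long introns. Seurat 4.1.0, named in the submitters' processing notes, was not used here.

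Groups came from the sample labels. Nuclei with 500 to 3000 genes and at most 40000 UMIs were kept, and Scrublet doublets (scanpy 1.11.5, Python 3.11.15) were removed at the rate expected for the number of nuclei. Mitochondrial genes and Malat1 were left out. A nucleus entered a class with at least 3 markers of it and 2 more than of any other. Adipocyte markers had to make up 0.6% of its UMIs and macrophage markers 0.3%, and below 0.3% and 0.2% they did not count, because free RNA of both cell types was found in all nuclei. These shares and the uniform doublet removal were chosen after seeing the data. LAMs and PVMs needed 2 markers. The members and gene lists were chosen with earlier results of these data known.

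UMIs were summed per library and class and tested with edgeR 4.0.16 (limma 3.58.1, R 4.3.3) by glmQLFit and glmQLFTest, with TMM scaling, filterByExpr and Benjamini-Hochberg adjustment over all genes of the class. Chow (3 libraries), HFD (4) and weight loss (2) were the groups, so p-values measure the spread between libraries of one diet state and not between mice. DESeq2 1.42.0 was an alternative. The scripts were tested on simulated data. Pairs of libraries carry exact conditional 95% intervals without a test. Promoters came from RefSeq (GRCm38.p6). The text names the 8 members and, for each with at least 200 adipocyte UMIs, the 3 genes with the highest Pearson r. The alternatives were other scaling, gates, filters, doublets, limits on genes and controls, the sequencing set as a covariate and leaving out libraries. Gates at 0.4% and 0.8% were added after seeing the data.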

Additional observations from a re-analysis of the deposited data

Results flagged for a closer look

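Nuclei that entered no class were compared in no test or fold of the report and counted only in the totals behind the UMI shares. In them Plin2 was higher in H, HH and HCH than in the chow libraries, while the interval of CCH overlapped that of CCC. Plin2 CPM in these nuclei was 91.7 in CCC, 70.9 in CC and 66.3 in C, against 833 in H, 625 in HH, 95.6 in CCH and 348 in HCH, and 193 in HC and 345 in HHC after weight loss. CCH, the lowest HFD library, was above CCC by less than the width of their 95% intervals (86.0 to 106 and 83.7 to 100.3). The share of all genes that did not overlap in these nuclei is not given, so this is not read as a result about Plin2. The cells these nuclei came from were not identified. No library of the 4 under HFD stood apart from the other three by Dixon's test at its 95% limit in any of the 16 combinations of member and class looked at.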

How the results depend on the processing

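No paired analysis was possible because each diet group has 1 library and fewer than 2 replicate numbers are shared between groups. The calls under HFD turn on CCH and on the tool. Against 0 members called in every class over all libraries, DESeq2 called 3 in adipocytes, 4 in macrophages, 3 in progenitors, 1 in mesothelial and 1 in endothelial nuclei under HFD, and 1 in macrophages after weight loss. Without CCH and HCH edgeR called 3, 4, 4 and 1 in the first 4 of these classes under HFD and 1 each in macrophages and progenitors after weight loss. Without a filter on low counts it called 2 in adipocytes and 2 in endothelial nuclei. Leaving out each library in turn gave 0 to 3 in adipocytes, 0 to 4 in macrophages, 0 to 3 in progenitors, 0 to 1 in mesothelial and 0 to 1 in endothelial nuclei under HFD, and 0 to 1 in macrophages and 0 to 1 in progenitors after weight loss. The calls came without CCH, in progenitors under HFD also without C, and in endothelial nuclei without C (Cidec). The cause was not tested. Apart from the shares given above, the share of all genes called is not stated for these settings. These counts describe the settings and are not read as a result about the members.

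Members past 2-fold in adipocytes numbered 5 for H against C without an upper limit on genes (3 as reported), 2 for HC against CC with the mesothelial CPM subtracted (1), 2 for CCH against CC without the upper limit and 0 with C as control (1), and for HCH against CCH 0 without the upper limit, 1 with TMM factors and 0 with the mesothelial CPM subtracted (2). In macrophages, subtracting the mesothelial CPM left 1 for H against C (5), 2 for HH against CC (5), 1 for HC against CC (3) and 1 for CCH against CC (3), where C as control left 0, and the looser gate gave 5 for HC against CC. The share of all genes past 2-fold is not given for these settings. Without thinning, 4 members in place of 1 were found in a larger share of adipocytes in every HFD library.

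Most directions that turned were of members near no change. Adipocyte Cidec under HFD (-0.01 on the log2 scale) was at 0.31 with the sequencing set as covariate, 0.04 without CCH and HCH, 0.01 in nuclei without macrophage markers and 0.09 with the gate at 0.4%, and between -0.14 and 0.21 with a library left out. Cidea was at -0.32 without the upper limit and -0.09 with 6 gate markers (0.35; -0.19 to 0.69 with a library left out), and Fitm2 at -0.47 with the covariate and -0.02 without the upper limit (0.30; -0.01 to 0.96). After weight loss, Plin4 (0.01) was at -0.04 without the filter, -0.28 without macrophage markers, -0.00 with 6 markers and -0.05 with the gate at 0.8% (-0.07 to 0.08). Plin5 (0.01) was at -0.03 without the filter, -0.12 with the covariate, -0.00 with the looser gate, -0.10 with doublets kept and -0.10 with the gate at 0.4% (-2.0 to 0.60). Macrophage Bscl2 under HFD was at 0.01 with the covariate. In 2 cases a member past 2-fold turned: with the mesothelial CPM subtracted, adipocyte Hilpda of HH against CC was at -1.54, and with C as control macrophage Plin4 of CCH was at 0.10.

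The adipocyte sums of Hilpda, Cidea and Plin5 hold 1 to 46 UMIs per library, and H has 128 adipocyte-gated nuclei, so smaller changes of these members were not detectable at this depth. C was the only chow library of S075.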
